A study of Mus musculus with 2 samples.

Results

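The 10 p53 target genes, which the tumour suppressor p53 turns on directly, were followed in cultured mouse mast cells given an siRNA against GATA1. They are Cdkn1a, Mdm2, Ccng1, Perp, Trp53inp1, Sesn1, Sesn2, Gadd45a, Zmat3 and Phlda3. They were chosen by name, with earlier results of these data known. They were read by 13 probes (22 spots) of the array, out of 55659 probes in all, and the 10 genes stand among 20408 genes measured on both arrays. The GATA1 siRNA array and the control siRNA array each carried RNA of mast cells that had been grown out of bone marrow of C57BL/6 mice and transfected with 200 pmol of siRNA after 2 weeks of culture in interleukin 3 and 2 weeks in interleukin 3 with stem cell factor. Each array carried 1 pool of RNA from 2 animals, so there is 1 array per group, no test across arrays was possible, and no difference has a replicate check. Precision is limited by there being so few arrays.

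The transcription factor p53 is held at a low level by the ubiquitin ligase Mdm2 and accumulates when DNA damage or other stress blocks that control. It binds DNA as a tetramer and turns on genes that stop the cell cycle, repair DNA, alter metabolism or kill the cell, and one of its targets is Mdm2 itself, which closes a feedback loop. Several of the targets also answer to other factors: ATF4 drives Sesn2 in amino acid and endoplasmic reticulum stress, and FOXO factors drive Sesn1 and Gadd45a.

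Values below are signals of the scanner software in scanner units, levels (the signal divided by the array's 75th percentile over its probes, 340.0 for GATA1 siRNA and 303.2 for control siRNA) and log2 differences of levels, GATA1 siRNA minus control siRNA. Of the 59305 spots with gene probes, 55.7% on the GATA1 siRNA array and 53.3% on the control siRNA array were well above background, and no spot was saturated. Gata1, the targeted gene, had a signal of 3930 with GATA1 siRNA and 16415 with control siRNA, a log2 difference of -2.23. All 16 mast cell markers listed were measured, and 5 were above 0, against 52.7% of all measured genes. The summed level of the 16 was 2872 with GATA1 siRNA and 3115 with control siRNA. In level the tryptase Tpsb2 differed most of the 16, with 253.6 for GATA1 siRNA and 371.4 for control siRNA. The tryptase Tpsab1 (-2.11, and -1.76 with normexp background correction) and the chymase Mcpt4 (-0.88) had the largest log2 differences among the 16 markers.

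All 13 probes of the p53 targets were well above background on both arrays, so every gene has a measured difference. Above 0 were 7 of the 10 genes, against 52.7% of all measured genes, and the median over the 10 was 0.16, against 0.01 over all genes. Only Perp passed 1.5-fold, where 1.83% of all genes lay higher and 2.76% lower, and none of the 10 passed 2-fold, where 0.294% of all genes lay higher and 0.608% lower. The differences ran from -0.46 for Trp53inp1 to 0.83 for Perp, so the targets lay on both sides of 0. In such pooled RNA, more or fewer cells of a type and more or less RNA per cell cannot be told apart. The direction of Gadd45a and Zmat3 depends on the scaling: they stood at -0.02 and -0.05 here, and at 0.05 and 0.01 with the authors' own scaling.

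The error of a difference was taken from 2 sources. The scanner software's own error was 0.20 to 0.21 on the log2 scale for every one of the 13 probes, and it is dominated by a fixed relative error that the software assumes. The second is the spread of 255 measured probes printed 10 times on each array, whose SD of the difference had a median of 0.03 to 0.10 at the signal levels of these 13 probes. Both describe the array and not the cells or animals. Of the 13 probes, 5 were higher by more than the software error (13.9% of all measured probes were) and 2 were lower by more than it (15.9% of all measured probes were). The 5 are 1 probe of Cdkn1a and the probes of Mdm2, Ccng1, Perp and Sesn1, and the 2 are both probes of Trp53inp1.

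**Figure D1:**
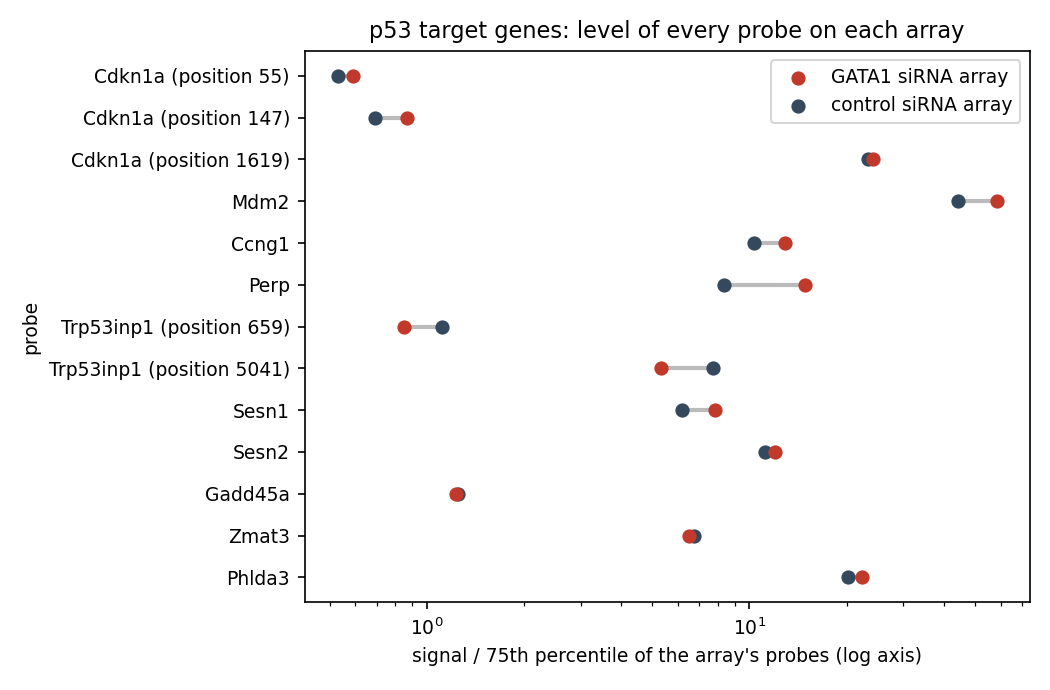
Level of each of the 13 probes on the GATA1 siRNA array (red) and the control siRNA array (dark blue), as signal divided by the 75th percentile of the array's probes, on a log axis. Probes of Cdkn1a and Trp53inp1 are named by their position in the transcript. The red point lies clearly right of the blue one for Perp and Mdm2 and left of it for both Trp53inp1 probes, while the points of Gadd45a and Zmat3 nearly coincide. Levels of different probes are not comparable with each other.

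Cdkn1a encodes p21, the inhibitor of cyclin-dependent kinases through which p53 arrests the cell cycle, and it is the only member with 3 probes. The probe near the 3′ end of the transcript (position 1619 of the mRNA, mm9 chr17:29237377-29237436, plus strand) was printed 10 times, and 1 spot was left out because the software marked it as an outlier on the control siRNA array. Over the 9 spots used, its level was 24.2 ± 0.316 with GATA1 siRNA and 23.3 ± 0.540 with control siRNA (SD over 9 spots of 1 array each). The spots ran from 23.7 to 24.7 with GATA1 siRNA and from 22.5 to 24.1 with control siRNA, so the ranges overlap. The log2 difference was 0.06 with an SD of 0.03 over spots, the difference per spot running from 0.01 to 0.10.

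**Figure D2:**
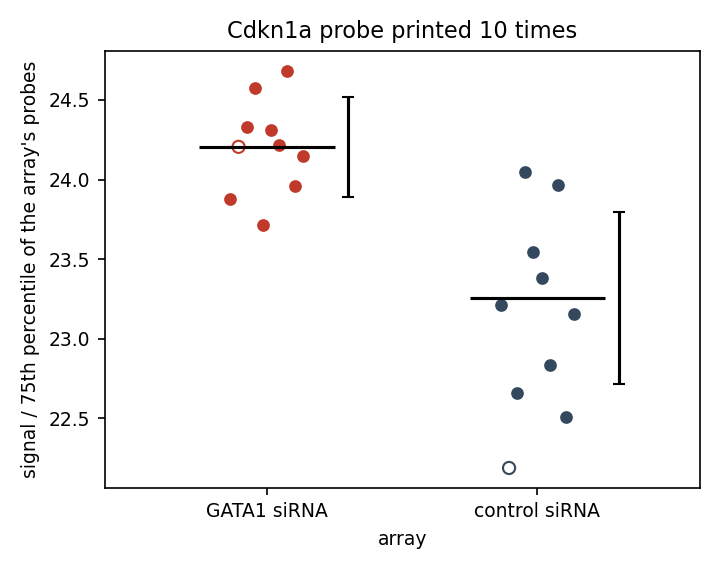
The Cdkn1a probe printed 10 times, as level (signal divided by the 75th percentile of the array's probes) on the GATA1 siRNA array (left) and the control siRNA array (right). Each point is a spot, the open circles are the spot left out, the line is the mean and the bar the SD over the 9 spots used. The axis does not start at 0. The spots of the GATA1 siRNA array lie between 23.7 and 24.7 and those used on the control siRNA array between 22.5 and 24.1.

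The other Cdkn1a probes read 5′ parts of its transcripts and were printed a single time. The probe at position 55 of transcript variant NM_001111099 (mm9 chr17:29227986-29228045) had a signal of 200.3 with GATA1 siRNA and 160.4 with control siRNA, a log2 difference of 0.16. The probe at position 147 of the Ensembl model ENSMUST00000122348 (mm9 chr17:29235299-29235358) had a signal of 295.8 with GATA1 siRNA and 210.3 with control siRNA, a log2 difference of 0.33. All 3 probes were higher with GATA1 siRNA, and their differences had a mean of 0.18 and an SD of 0.14. The software error of each probe was 0.20 to 0.21, so the 3 differences are not separated by it. The SD of repeated spots was smaller, 0.03 at the level of the bright probe and 0.10 at that of the dim ones. Whether the probes disagree was not tested. The gene's value therefore depends on how its probes are combined: the brightest probe alone gives 0.06.

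The last 30 of the 60 bases of each Cdkn1a probe are shown because the 3 probes read different stretches of 1 gene. The capitals mark the start codon of p21, which the second probe covers.
Cdkn1a, position 55: acgtcccactttgccagcagaataaaaggt
Cdkn1a, position 147: tcttgtgtttcagccacaggcaccATGtcc
Cdkn1a, position 1619: gctgatcctttctcagtgttgaataccgtg

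In the RefSeq table for assembly GRCm38.p6, Cdkn1a has transcripts starting at 2 places 2790 bp apart. The 250 bases before each start are shown because they differ in letters that resemble a p53 response element, the DNA site that a p53 tetramer binds. Both windows were searched on both strands for the GATA motif (AGATAA or AGATAG in one form and TGATAA or TGATAG in the other) and for the p53 decamer, the 10-letter unit that is repeated in a response element. Capitals mark matches: in the upstream window a GATA motif on the minus strand whose first base lies 195 bases before the start, a decamer 73 bases before it, and a run of 2 adjoining decamers 51 bases before it, the second of them with 1 mismatch. The downstream window held no match, which says only that these letters are not in it.
Cdkn1a upstream start, chr17:29090729-29090978, plus strand: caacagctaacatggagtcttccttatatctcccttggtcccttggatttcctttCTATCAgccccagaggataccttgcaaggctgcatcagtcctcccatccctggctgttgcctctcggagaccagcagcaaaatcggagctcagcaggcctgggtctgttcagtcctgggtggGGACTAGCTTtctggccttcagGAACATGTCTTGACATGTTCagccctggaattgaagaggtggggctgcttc
Cdkn1a downstream start, chr17:29093519-29093768, plus strand: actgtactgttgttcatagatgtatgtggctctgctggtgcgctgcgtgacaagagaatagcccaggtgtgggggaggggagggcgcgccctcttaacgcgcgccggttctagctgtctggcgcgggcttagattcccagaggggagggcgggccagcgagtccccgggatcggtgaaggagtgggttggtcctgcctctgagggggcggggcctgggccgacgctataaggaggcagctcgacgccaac

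Mdm2 and Ccng1 act on p53 itself, Mdm2 as its ubiquitin ligase and cyclin G1 (Ccng1) by bringing a phosphatase to Mdm2. The Mdm2 probe (position 2918 of the mRNA, mm9 chr10:117126010-117126069, minus strand) had a signal of 19863 with GATA1 siRNA and 13384 with control siRNA. Its log2 difference was 0.40, or 1.32-fold, and 4.78% of all measured genes were at least as high. The spot touches 2 neighbours that differ 4-fold or more between the arrays, the only such spot among the 22, and Mdm2 has no value when spots of this kind are left out. Pixels within the Mdm2 spot had a coefficient of variation of 0.17 on the GATA1 siRNA array and 0.15 on the control siRNA array, inside the range of 0.06 to 0.22 over the 13 probes. Evenness within a spot cannot show whether a patch of the slide shifted the whole spot.

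The Ccng1 probe (position 3054, mm9 chr11:40562427-40562486, minus strand) had a signal of 4382 with GATA1 siRNA and 3123 with control siRNA, a log2 difference of 0.32. Both genes thus had higher values with GATA1 siRNA, 1.32-fold and 1.25-fold, each at a single spot and with the limit given above for Mdm2. Of all measured genes, 52.7% were above 0. The promoter windows of both genes hold a p53 decamer, in Mdm2 with its first base 186 bases before the start and in Ccng1 as the second unit of a run of 2 that begins 195 bases before the start. They are shown for comparison with Cdkn1a, with the matches in capitals (GRCm38.p6, both genes on the minus strand, 5′ to 3′ along the gene).
Mdm2, chr10:117710759-117711008: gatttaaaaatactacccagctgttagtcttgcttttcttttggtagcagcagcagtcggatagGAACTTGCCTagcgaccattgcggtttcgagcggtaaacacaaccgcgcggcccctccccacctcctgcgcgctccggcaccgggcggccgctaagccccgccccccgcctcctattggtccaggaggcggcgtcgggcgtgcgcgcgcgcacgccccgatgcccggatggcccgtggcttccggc
Ccng1, chr11:40755287-40755536: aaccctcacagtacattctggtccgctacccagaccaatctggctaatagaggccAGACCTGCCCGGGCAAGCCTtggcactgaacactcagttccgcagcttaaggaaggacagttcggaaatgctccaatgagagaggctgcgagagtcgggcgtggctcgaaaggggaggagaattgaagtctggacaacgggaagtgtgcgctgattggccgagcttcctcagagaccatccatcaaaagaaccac

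The table holds 9 such windows for 7 of the 10 genes. A decamer was found in 5 of the 9 windows (1 each of Cdkn1a, Mdm2, Ccng1, Sesn1 and Gadd45a), and 7.13% of all 32851 windows in the table hold one. The run of 2 adjoining decamers with at most 1 mismatch in 1 of them, a search added after the single matches had been seen, was found in 2 of the 9 windows (Cdkn1a and Ccng1) and in 19 of all windows (0.0578%). The GATA motif was found in 1 of the 9 windows and in 26.5% of all windows. G and C made up 54.0% to 71.2% of the letters in the 9 windows, against a median of 52.4% over all windows. A match is a description of the letters and not evidence of binding in these cells. The genes with a decamer stood at 0.40 (Mdm2), 0.34 (Sesn1), 0.32 (Ccng1), 0.18 (Cdkn1a) and -0.02 (Gadd45a). Those with a window but no decamer stood at 0.14 (Phlda3) and 0.10 (Sesn2). The 3 genes without a window include both extremes, at 0.83 (Perp), -0.05 (Zmat3) and -0.46 (Trp53inp1). A link between decamers and differences was not tested.

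Perp had the highest difference of the 10. It encodes a tetraspan membrane protein that p53 induces during apoptosis and that desmosomes need in epithelia. Its probe (position 1718, mm9 chr10:18576697-18576756, plus strand) had a signal of 5037 with GATA1 siRNA and 2521 with control siRNA. The log2 difference was 0.83, or 1.78-fold, 123 of the 20408 measured genes were at least as high, and the value lay between 0.78 and 0.89 under all 13 settings of the processing. The single spot had no neighbour that differed 4-fold. Perp belongs to the PMP22 family, in which Emp2 was higher at both of its probes (0.82 and 0.83), with a mean signal of 629 for GATA1 siRNA and 317 for control siRNA. The other members of that family gave 0.17 for Emp1, 0.03 for Emp3 and -0.23 for Pmp22.

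Trp53inp1 was the lowest of the 10. Its product is a nuclear and autophagosomal protein that strengthens p53 signalling through the kinase HIPK2. The probe at position 659 (mm9 chr4:11092530-11092589) had a signal of 289.4 with GATA1 siRNA and 337.3 with control siRNA, a log2 difference of -0.39. The probe at position 5041 (mm9 chr4:11101174-11101233) had a signal of 1814 with GATA1 siRNA and 2343 with control siRNA, a log2 difference of -0.53. Both probes were lower with GATA1 siRNA, their mean was -0.46, and 4.90% of all measured genes were at least as low. The gene was below 0 under all 13 settings, from -0.53 to -0.40. Its relative Trp53inp2, an autophagy and transcription cofactor, stood at 0.30, on the other side of 0.

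The last 30 bases of the probes behind the highest and the lowest member are shown, since each of these values rests on 1 or 2 oligonucleotides.
Perp, position 1718: ataccggaagggctactattaccttttcct
Trp53inp1, position 659: tgtggaaatgatgaatataactcaagtggt
Trp53inp1, position 5041: tcaacttgaaacttaaaagggacattttgg

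The sestrins Sesn1 and Sesn2 restrain the growth kinase mTORC1 when amino acids are short and protect against oxidants. The Sesn1 probe (position 2951, mm9 chr10:41628012-41628071, plus strand) had a signal of 2662 with GATA1 siRNA and 1878 with control siRNA, a log2 difference of 0.34. The Sesn2 probe (position 2459, mm9 chr4:132048858-132048917, minus strand) had a signal of 4070 with GATA1 siRNA and 3387 with control siRNA, a log2 difference of 0.10, which is under the software error. Sesn3, which FOXO factors control, was higher at 0.43 (0.32 with normexp background correction), with signals of 245 for GATA1 siRNA and 162 for control siRNA. All 3 sestrins were thus above 0, Sesn2 least, where 52.7% of all measured genes were above 0.

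The remaining members differed by less than the software error. Phlda3, a pleckstrin homology protein that keeps the kinase Akt from the membrane, had a signal of 7576 with GATA1 siRNA and 6130 with control siRNA, a log2 difference of 0.14 (mm9 chr1:137665642-137665701). Zmat3, a zinc finger protein that binds RNA, had a signal of 2209 with GATA1 siRNA and 2045 with control siRNA, a log2 difference of -0.05 (mm9 chr3:32233831-32233890). Gadd45a, a stress protein that binds p21 and the replication clamp PCNA, had a signal of 419.1 with GATA1 siRNA and 377.6 with control siRNA, a log2 difference of -0.02 (mm9 chr6:66985376-66985435). The raw signals of all 3 were higher on the GATA1 siRNA array, whose 75th percentile was higher too, and only Phlda3 kept a positive difference after scaling. Among their relatives, Gadd45g stood at 0.30 and Gadd45b at 0.16, while Phlda1, which other stimuli induce, was 1.62-fold lower (-0.69, signals of 992 for GATA1 siRNA and 1431 for control siRNA).

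**Figure D3:**
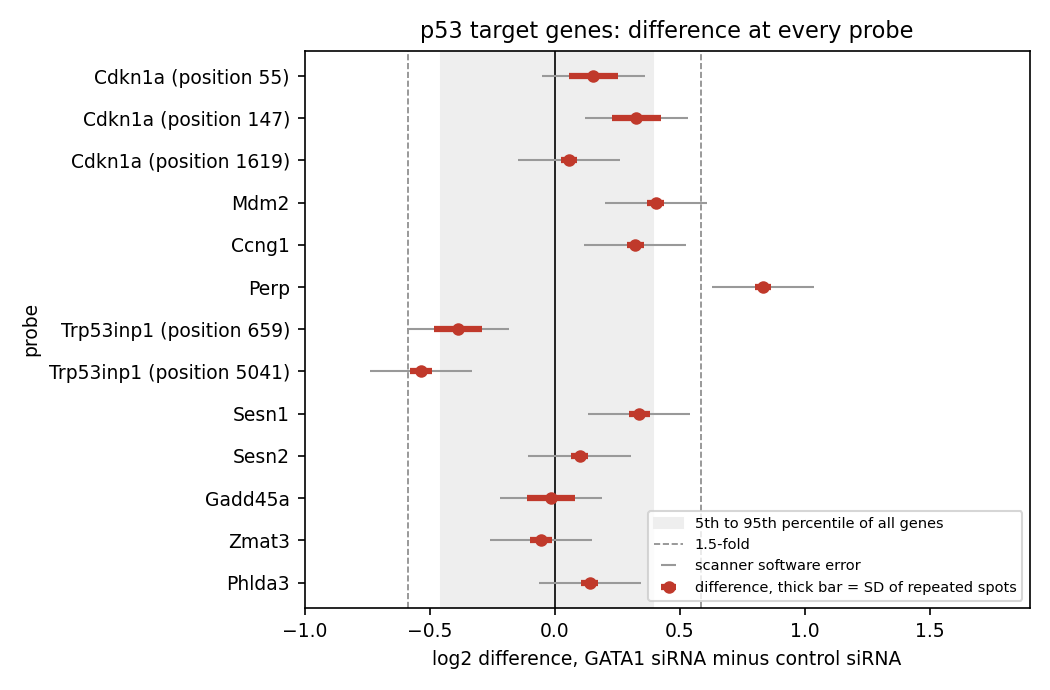
Log2 difference, GATA1 siRNA minus control siRNA, at each of the 13 probes. Thin bars are the scanner software's error, thick bars the SD of repeated spots at that signal level, the grey band the 5th to 95th percentile of all measured genes, and dashed lines 1.5-fold. Perp at 0.83 lies outside the band and past 1.5-fold, Mdm2 at 0.40 lies at the edge of the band, and the Trp53inp1 probes lie at -0.39 and -0.53.

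The p53 transcript and most of the genes that control p53 differed little. Trp53 had a signal of 280 with GATA1 siRNA and 249 with control siRNA, a log2 difference of 0.01 at 1 probe, and of -0.01 with scaling over all spots. Of 23 listed genes for p53, its family and its control, all were measured, and 16 were above 0. That count, like those of the lists below, stands against 52.7% of all measured genes. None of the 23 passed 1.5-fold, and their median was 0.04. The largest differences were those of the kinase Chek2 (-0.30), the phosphatase Ppm1d (0.27), which is itself a p53 target and switches the response off, the family member Trp63 (-0.27, at the 1 measured probe of 4) and Cdkn2a (0.21), the locus that also encodes the Mdm2 inhibitor Arf. Mdm4, the partner of Mdm2, stood at 0.07. A transcript array does not measure p53 protein, through which most of its control runs.

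Other p53 targets, listed by role with earlier results of these data known, gave a similar picture. Of 73 such genes 67 were measured, 48 of them were above 0, 1 was at least 1.5-fold higher and none at least 1.5-fold lower, and the median was 0.14. The share above 0 is 7 of 10 for the genes of this report and 48 of 67 for the rest, against 52.7% of all genes, and this difference was not tested. The median moved with the scaling of the arrays, from 0.11 to 0.20 over the settings, as the median over the 10 genes did, from 0.12 to 0.22. Close relatives of the members, of which 16 of 18 were measured, had 13 above 0 and a median of 0.16. Whether targets differ from these relatives was not tested.

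Targets with a role in cell death were mostly above 0, with 11 of 15 measured genes and a median of 0.16. Siva1 (0.34), Casp6 (0.34), the death receptor Fas (0.28) and Pmaip1 (0.26), which encodes the BH3 protein Noxa, differed most. Both probes of Siva1 were above 0, at 0.31 and 0.37. Cell cycle targets had 9 of 11 measured genes above 0 and a median of 0.23, but the 4 with the largest differences had signals of at most 163 on either array. They were the kinase Plk2 at 0.52, with signals of 36 for GATA1 siRNA and 22 for control siRNA, the cyclin Ccnd1 at 0.46, Ckap2 at 0.46 and Sfn at 0.39. With normexp background correction these 4 stood at 0.01, 0.09, 0.30 and 0.23, and the median of the list at 0.12.

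Metabolic and redox targets had 12 of 15 measured genes above 0 and a median of 0.19. The thiamine transporter Slc19a2 led them at 0.61 or 1.53-fold, with signals of 823 for GATA1 siRNA and 481 for control siRNA, and was the only gene of the 67 past 1.5-fold. Cpt1c (0.41, and 0.06 with normexp) rests on probes at 0.06 and 0.75 that disagree, while adenylate kinase Ak1 (0.38) and the fructose bisphosphatase Tigar (0.32) followed. Repair targets were split, 5 of 9 above 0 with a median of 0.02: the clamp Pcna stood at 0.22 and the damage sensor Xpc at 0.16, against Rrm2b, a ribonucleotide reductase subunit, at -0.41 and Fancc at -0.34. Both of these were dim, with normexp values of -0.22 and -0.17, and the brighter Fancc probe gave -0.01. Targets with other roles had 11 of 17 above 0 and a median of 0.05. The proteoglycan Vcan stood at 0.57 (probes at 0.31 and 0.84) and the dim Ptpn14 at -0.38 (-0.27 with normexp). The tetraspanin Cd82 stood at 0.37 over 3 probes and Trp53i13 at 0.29.

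**Figure D4:**
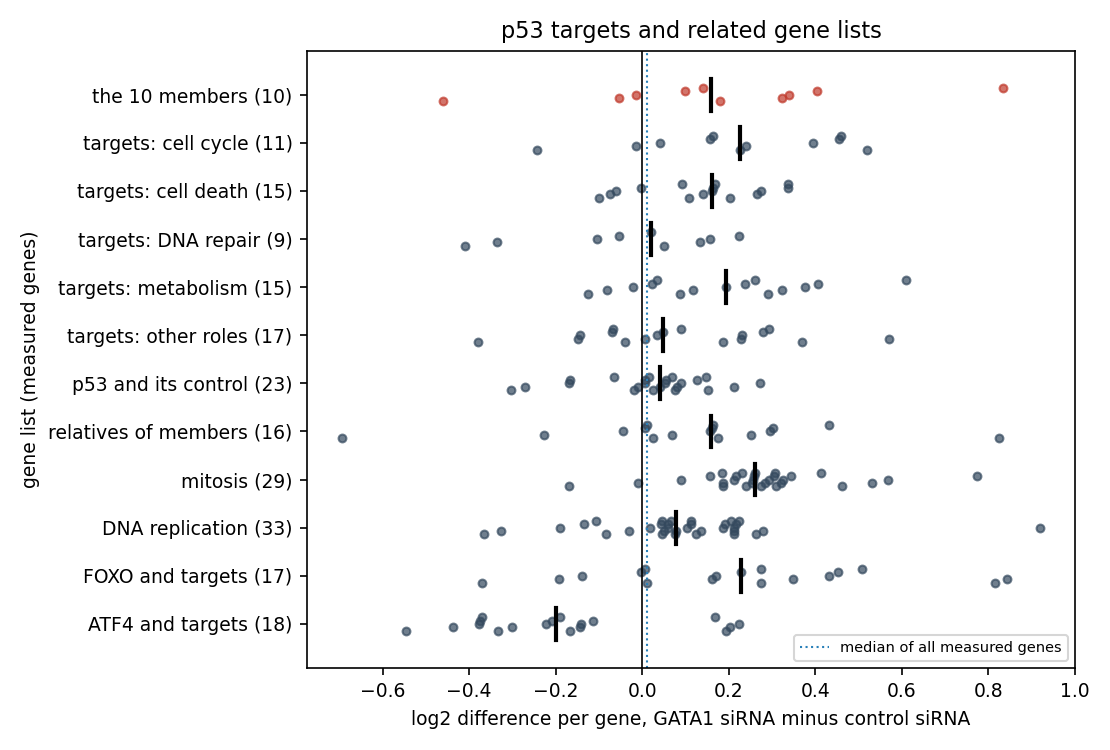
Log2 difference per measured gene, GATA1 siRNA minus control siRNA, for the 10 p53 targets (red) and related lists (dark blue). Black bars are list medians and the dotted line the median of all measured genes (0.01). The members' median is 0.16, that of mitosis genes 0.26 and that of ATF4 targets -0.20.

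Mitosis genes, which are repressed when p53 and p21 are active, had 27 of 29 measured genes above 0, against 52.7% of all measured genes. Their median was 0.26, and a link to p53 activity was not tested. The phosphatases Cdc25c (0.77) and Cdc25b (0.57) and the kinases Aurkb (0.53) and Ttk (0.46) differed most. Of these only Cdc25b had signals above 100, with 693 for GATA1 siRNA and 417 for control siRNA, and with normexp Cdc25c stood at 0.18, Aurkb at 0.14 and Ttk at 0.07. DNA replication genes had 26 of 33 above 0 and a median of 0.08, with the dim Orc1 at 0.92 (0.18 with normexp), Cdc45 at -0.36 (-0.23), Ccne2 at -0.33 (-0.19) and Gins1 at 0.28. FOXO factors and their targets had 13 of 17 above 0 and a median of 0.23, with the death gene Bcl2l11 at 0.84 (0.41 with normexp), Bcl6 at 0.81, Klf2 at 0.51 and Fbxo32 at 0.45 (0.15 with normexp).

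ATF4 and its targets lay the other way, with 14 of 18 below 0 and a median of -0.20. The count above 0 was 4 under all 13 settings. The most negative were Nupr1 at -0.55, the pseudokinase Trib3 at -0.44, Mthfd2 at -0.38 and Ddit3 at -0.38. Sesn2, an ATF4 target that is not in this list, stood at 0.10. The 4 genes above 0 in the ATF4 list were Cebpb at 0.23, Ppp1r15a at 0.20, Ddit4 at 0.19 and Atf3 at 0.17. Ddit4 also stands in the list of metabolic p53 targets. Pcna likewise stands in the repair and replication lists, and Sesn3, Ccng2 and Cdkn1b in the lists of relatives and of FOXO targets.

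Markers of other blood cells also differed between the arrays, where 52.7% of all measured genes were above 0. Neutrophil markers had 13 of 15 measured genes above 0 and a median of 0.50, with Ltf at 0.79 and Ngp at 0.75 (0.64 with normexp). Their summed level was 456 with GATA1 siRNA and 472 with control siRNA, and most of that sum came from Csf3r (-0.24) and Ctsg (-0.37), the 2 markers below 0. Macrophage and monocyte markers had 11 of 14 above 0 and a median of 0.40. Ms4a7 stood at 1.09 (0.95 with normexp), Cd68 at 1.07 and Cx3cr1, below 0 at both of its probes, at -0.94. The summed level of these markers was 41.2 with GATA1 siRNA and 28.6 with control siRNA. Dendritic cell and class II markers had 8 of 10 above 0 and a summed level of 20.1 with GATA1 siRNA and 16.5 with control siRNA. Ccl17 (-0.61, and -0.50 with normexp) and H2-Aa (0.58, and 0.31 with normexp) differed most among them. Eosinophil markers had 7 of 10 below 0, with Epx at -0.85 and Prg3 at -0.71 (-0.56 with normexp). Their summed level was 26.6 with GATA1 siRNA and 35.2 with control siRNA.

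Of 7 basophil markers, 5 were above 0, with Itga2 at 0.45 (0.09 with normexp) and Mcpt8 at 0.29, and their summed level was 277 with GATA1 siRNA and 250 with control siRNA. Only 5 of 12 erythroid markers were measured, with Epor at -1.58 (-0.99 with normexp) and Hba-a1 at 0.69 (0.51 with normexp). Their summed level was 2.34 with GATA1 siRNA and 2.11 with control siRNA, and Klf1 and Alas2 were not well above background. Only 4 of 13 lymphocyte markers were measured, with Cd79a at -0.38 (-0.23 with normexp) and Cd3e at -0.14 and a summed level of 4.32 with GATA1 siRNA and 4.77 with control siRNA, and Ms4a1 and Cd8a were not well above background. Only 5 of 11 stromal markers were measured, with Timp3 at -0.61 (-0.37 with normexp) and Pdgfrb at 0.39 (0.09 with normexp) and a summed level of 3.96 with GATA1 siRNA and 3.25 with control siRNA, and Col1a1 and Col3a1 were not well above background. Megakaryocyte markers had 4 of 9 above 0, with Gp1ba at -1.02 and Ppbp at -0.74 (-0.58 with normexp). Their summed level was 49.8 with GATA1 siRNA and 58.9 with control siRNA. The part of these markers in the differences of the p53 targets was not tested.

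**Figure D5:**
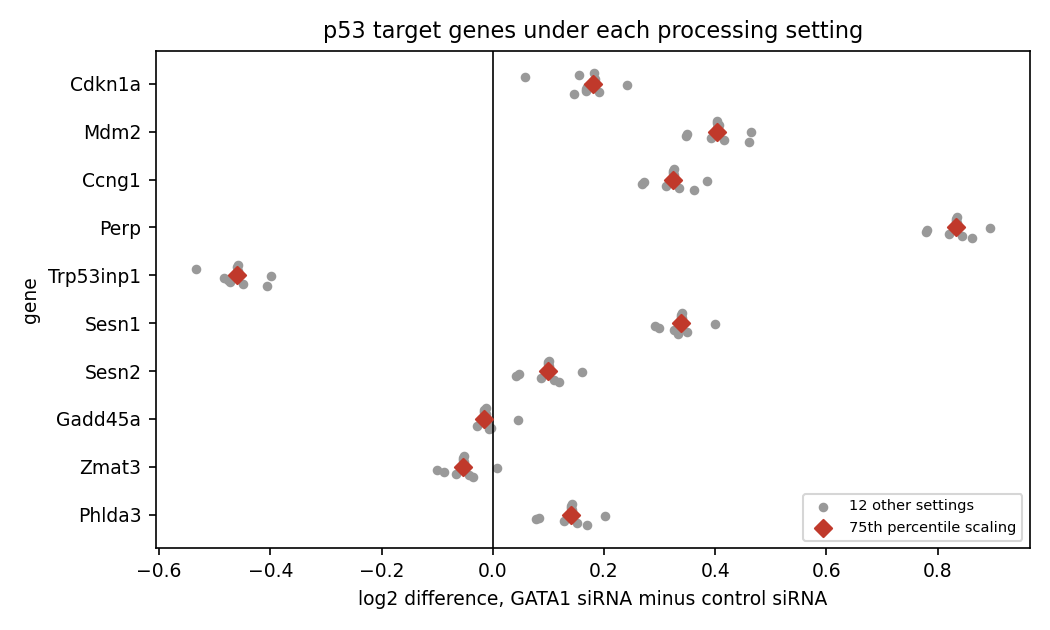
Log2 difference, GATA1 siRNA minus control siRNA, of each of the 10 genes with 75th percentile scaling (red diamonds) and under the 12 other settings (grey points, 11 for Mdm2). Perp stays between 0.78 and 0.89 and Trp53inp1 between -0.53 and -0.40, and only Gadd45a and Zmat3 have settings on both sides of 0.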

How the data were processed

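Each siRNA group is 1 one-colour (Cy3) array. Per the file headers, the authors obtained the spot intensity with Agilent Feature Extraction 10.7.3.1, background-subtracted and detrended, with no scaling between arrays, on a design annotated on mm9. A normalized intensity table that the authors deposited equals each array's processed signal divided by its own median over gene spots.

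Control spots and spots marked as outliers on either array (133 with GATA1 siRNA, 117 with control siRNA) were left out. Repeated spots were averaged on the log2 scale, and signals were scaled to the 75th percentile over the probes of an array. A probe was measured where well above background and unsaturated on both arrays (28747 probes). Measured probes of a gene were averaged. Members were found by the array's gene name, other genes through accession, symbol or synonym in a RefSeq table (GRCm38.p6), used for names, with 24289 probes keeping the array's name. Promoter sequences are RefSeq's.

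With 1 array per group, 1.5-fold and 2-fold rules of size replaced tests. The genes named in the text are all members, Gata1, Trp53, the 4 genes that differ most, in either direction, in a list (2 for cell markers), some of the markers at or below background, and a few relatives of members, genes of more than 1 list and markers, these last chosen after their values were seen. The 4 genes above 0 in the ATF4 list are named too. Members and lists were chosen with earlier results of these data known. Alternatives were normexp (offset 50, limma 3.58.1), other scalings (median, all spots, quantile, loess with span 0.4, the authors' table), other filters on dim, marked or neighbouring spots, and other ways to combine probes. The procedure was tested on simulated arrays.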

Additional observations from a re-analysis of the deposited data

How the results depend on the processing

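Over 12 alternatives, each changing 1 choice, the counts and medians of the 10 p53 targets kept their direction and size: 6 to 9 genes above 0, 1 past 1.5-fold, none past 2-fold and a median of 0.12 to 0.22. The 6 came where Mdm2 was left out with its patch of the slide and the 9 with the authors' table, whose scaling raised the median of all genes by 0.06. Among single members only Cdkn1a moved by more than 0.10 (the typical SD among probes for 1 gene), to 0.06 with its brightest probe. With normexp background correction the median of cell cycle targets was 0.12, and 17 genes of the array were at least 2-fold higher and 31 lower, against 60 and 124. Without a filter on dim probes these counts were 725 and 1124, with signals of at least 100 they were 13 and 35, and without spots in patches 38 genes were higher. Of all genes past 2-fold, 32.6% were higher, and 42.5% with loess or the authors' table. Gata1 stayed between -2.28 and -2.17. Of 880 values of single genes, 43 moved by more than 0.10. The sign turned for Gadd45a (0.05) and Zmat3 (0.01) with the authors' table and for Trp53 (-0.01) with the percentile over all spots. The causes were not tested. No paired analysis was possible because each group is 1 array. Dim probes are limited by signal over background: repeated spots had an SD of 0.27 among the 51 dimmest of 255 such probes and 0.03 among the 51 brightest.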
